A study of Homo sapiens with 4 samples.

Results

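The interleukin-6 (IL-6) family pathway was followed in SUM159 cells through 10 genes chosen by name: the cytokines IL6, LIF, IL11 and CLCF1, the receptor genes IL6ST, IL6R, OSMR and LIFR, the transcription factor STAT3 and its feedback inhibitor SOCS3. All 10 were matched by symbol among the 60279 genes of the count tables. SUM159 is an established triple-negative breast cancer line, grown here with serum, insulin and hydrocortisone, the last a glucocorticoid. RNA was sequenced from untreated cells and from cells given palbociclib, an inhibitor of the cell cycle kinases CDK4 and CDK6, or indisulam, a sulfonamide that directs the splicing factor RBM39 to degradation, or the combination of both. The study asked how this drug pair acts on cancer cells, with senescence, a lasting arrest often joined by cytokine secretion, among its outcomes. The label of each library gives 0.5 µM palbociclib and 2 µM indisulam for 10 days, whereas the text on the series gives 2 µM and 3 µM for 16 h, so dose and time are open here. Each of the 4 conditions had 1 library. The series text speaks of technical duplicates, and whether these were pooled was not stated.

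Cytokines of this family bind a receptor made of the shared signalling chain gp130, the product of IL6ST, and a partner chain. IL-6 and IL-11 first bind their own alpha chains, whereas LIF signals through gp130 paired with the LIF receptor. Oncostatin M signals through gp130 paired with the LIF receptor or the oncostatin M receptor. CLCF1 uses an alpha chain too, encoded by CNTFR, together with gp130 and the LIF receptor. The receptors activate JAK kinases, which phosphorylate STAT3, and STAT3 induces genes such as SOCS3, whose product then blocks the receptor. IL-6 is also known as a leading component of the secretory phenotype of senescent cells. The files hold RNA levels, and neither secreted protein nor phosphorylated STAT3 was measured in them.

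The libraries held 12555908 to 16712174 reads assigned to genes, and levels are given relative to these, in CPM (reads of the gene per 1000000). The culture had the markers of its line, with VIM at 2642 to 4598 CPM and CD44 at 706 to 883 CPM, while the epithelial genes CDH1, EPCAM and CLDN3 summed to 1.34 to 2.92 CPM and the hormone receptor genes ESR1 and PGR to 0.299 to 1.32 CPM. Of 5 leukocyte markers, CD3E had no read in any library. The list summed to 16.9 to 22.1 CPM, mostly from PTPRC at 11.1 to 17.5 CPM and CD14 at 3.95 to 9.24 CPM. Of 3 endothelial markers, PECAM1 led at 15.2 to 40.9 CPM, and the list summed to 43.0 CPM with palbociclib and to 16.1 to 21.6 CPM in the other libraries. Single markers of hepatocytes, adipocytes, smooth muscle and melanocytes stood at 0 to 0.159 CPM. The part of these transcripts in the results was not tested. Mitochondrially encoded genes took 4.90% to 7.33% of the gene counts.

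With 1 library per condition there is no replicate error and no p-value, and each comparison is between libraries. Ratios were taken between counts scaled to equal totals, after adding 1 scaled count, and are given on the log2 scale with a 95% Poisson interval that covers counting error only. A gene was called higher or lower where its ratio was at least 2-fold and its interval excluded 1. This was done for the 14269 genes with a mean of at least 1 CPM, which include 9 of the 10 genes here. IL11 fell below that limit. The scatter of the drugs' departures from additivity over genes of like level gave a rough error for a single ratio. On the log2 scale its SD was 0.62 at 1 to 5 CPM, 0.37 at 5 to 20 CPM, 0.26 at 20 to 100 CPM and 0.28 above 100 CPM.

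A promoter stretch of each of 2 genes is printed because IL6 and LIFR, which stand on opposite sides of the results below, both have starts listed in RefSeq and matches to motifs of factors tied to this pathway. Both are reference sequence of GRCh38.p14, cut to the bases that no annotated exon of the gene covers, and run 5′ to 3′ on the gene's strand. Each lies between exons of longer annotated transcripts. The IL6 stretch is chr7:22726950-22727146 on the plus strand, with capitals for a C/EBP match (TTGCNNAA) from base -155 to -148 and an NF-kB match from base -73 to -64 of the RefSeq start. The LIFR stretch is chr5:38595406-38595655 on the minus strand, before 1 of 3 listed starts, with capitals for a STAT match (TTCNNNGAA) from base -165 to -157.
IL6: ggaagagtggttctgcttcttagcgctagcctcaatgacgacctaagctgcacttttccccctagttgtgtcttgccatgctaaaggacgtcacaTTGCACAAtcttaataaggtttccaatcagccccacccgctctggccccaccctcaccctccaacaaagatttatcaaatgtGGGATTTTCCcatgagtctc
LIFR: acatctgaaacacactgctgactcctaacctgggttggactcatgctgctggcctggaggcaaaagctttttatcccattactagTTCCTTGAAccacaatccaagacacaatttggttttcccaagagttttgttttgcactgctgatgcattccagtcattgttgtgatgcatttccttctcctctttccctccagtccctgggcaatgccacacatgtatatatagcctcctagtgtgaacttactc
Of the 10 genes, 8 had an entry with 11 windows of 250 bases before a start, and 4 motifs were sought in them on both strands. The STAT motif lay in 2 windows, both of LIFR, and in 6.57% of all 35116 promoter windows. A C/EBP match stood in windows of IL6, OSMR and LIFR and in 9.05% of all windows, and an NF-kB match in those of IL6 and IL6ST and in 9.96% of all. The AP-1 motif (TGANTCA) was found for IL11 alone among these 8 genes, and in 6.57% of all windows. These matches describe letters only. The windows of STAT3, SOCS3 and IL6R held none of the 4 motifs. For SOCS3, 1 window (chr17:78360926-78361175) lay farther upstream and 1 (chr17:78359668-78359917) lay inside the annotated gene. The bases just before its annotated start at 78360077 were thus not searched.

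IL6 encodes the founding cytokine of the family (ENSG00000136244, GRCh38 chr7:22725884-22732002, plus strand). Its level was 1.83 CPM in untreated cells, 4.57 CPM with palbociclib, 28.3 CPM with indisulam and 36.8 CPM with the combination, from 23, 58, 473 and 528 reads. Both libraries with indisulam thus lay far above both without it, and palbociclib alone stood between. The combination was 19.4-fold above untreated (log2 ratio 4.28, interval 3.68 to 4.87), which placed IL6 at percentile 99.3 of all tested genes. Indisulam alone gave 14.9-fold (3.90, 3.31 to 4.49) and palbociclib alone 2.44-fold (1.29, 0.60 to 1.97). Added to indisulam, palbociclib left IL6 1.30-fold higher (0.38, 0.20 to 0.56), about the size of the rough error and not called. The antisense gene IL6-AS1, which overlaps IL6 on the other strand, had 0, 4, 14 and 10 reads in the same order, and as no source says whether strand was used in counting, its reads cannot be told apart from those of IL6 for certain. In these bulk samples, more RNA per cell and more cells with the RNA cannot be told apart either.

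LIF encodes leukaemia inhibitory factor (ENSG00000128342, chr22:30240453-30246759, minus strand), which signals through LIFR and gp130. It was measured at 0.956, 2.13, 11.2 and 12.0 CPM in untreated, palbociclib, indisulam and combination cells, with 12, 27, 188 and 173 reads. As for IL6, the libraries fell into a low pair without indisulam and a high pair with it. LIF was called higher with indisulam at 11.0-fold (3.46, 2.65 to 4.28) and with the combination at 11.8-fold (3.56, 2.74 to 4.38). The call with palbociclib, at 2.14-fold (1.10, 0.15 to 2.05), rests on 12 and 27 reads and was lost with a pseudocount of 5. The combination and indisulam libraries differed by 1.07-fold, and that interval (-0.20 to 0.40) includes no difference.

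CLCF1 encodes cardiotrophin-like cytokine factor 1 (ENSG00000175505, chr11:67364168-67374177, minus strand), which signals through gp130, LIFR and the alpha chain encoded by CNTFR. The reads of CNTFR were 3, 3, 1 and 1 in untreated, palbociclib, indisulam and combination cells. CLCF1 was at 5.42 CPM untreated, 7.01 CPM with palbociclib, 7.60 CPM with indisulam and 10.9 CPM with the combination. The 4 libraries thus spanned a narrow range, with the combination highest. Its 2.01-fold rise in the combination (1.00, 0.60 to 1.41) sat at the threshold, and the call was lost with edgeR's TMM or upper-quartile factors and with a pseudocount of 5. RAD9A overlaps CLCF1 on the other strand and had 240, 170, 260 and 170 reads in the 4 libraries. IL11, which encodes interleukin-11 (ENSG00000095752, chr19:55364382-55370463, minus strand), had 4, 4, 14 and 14 reads in the same order. Too few reads were counted to tell these apart: the interval for indisulam against untreated ran from -0.25 to 2.69, and that for the combination from -0.05 to 2.90.

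**Figure D1:**
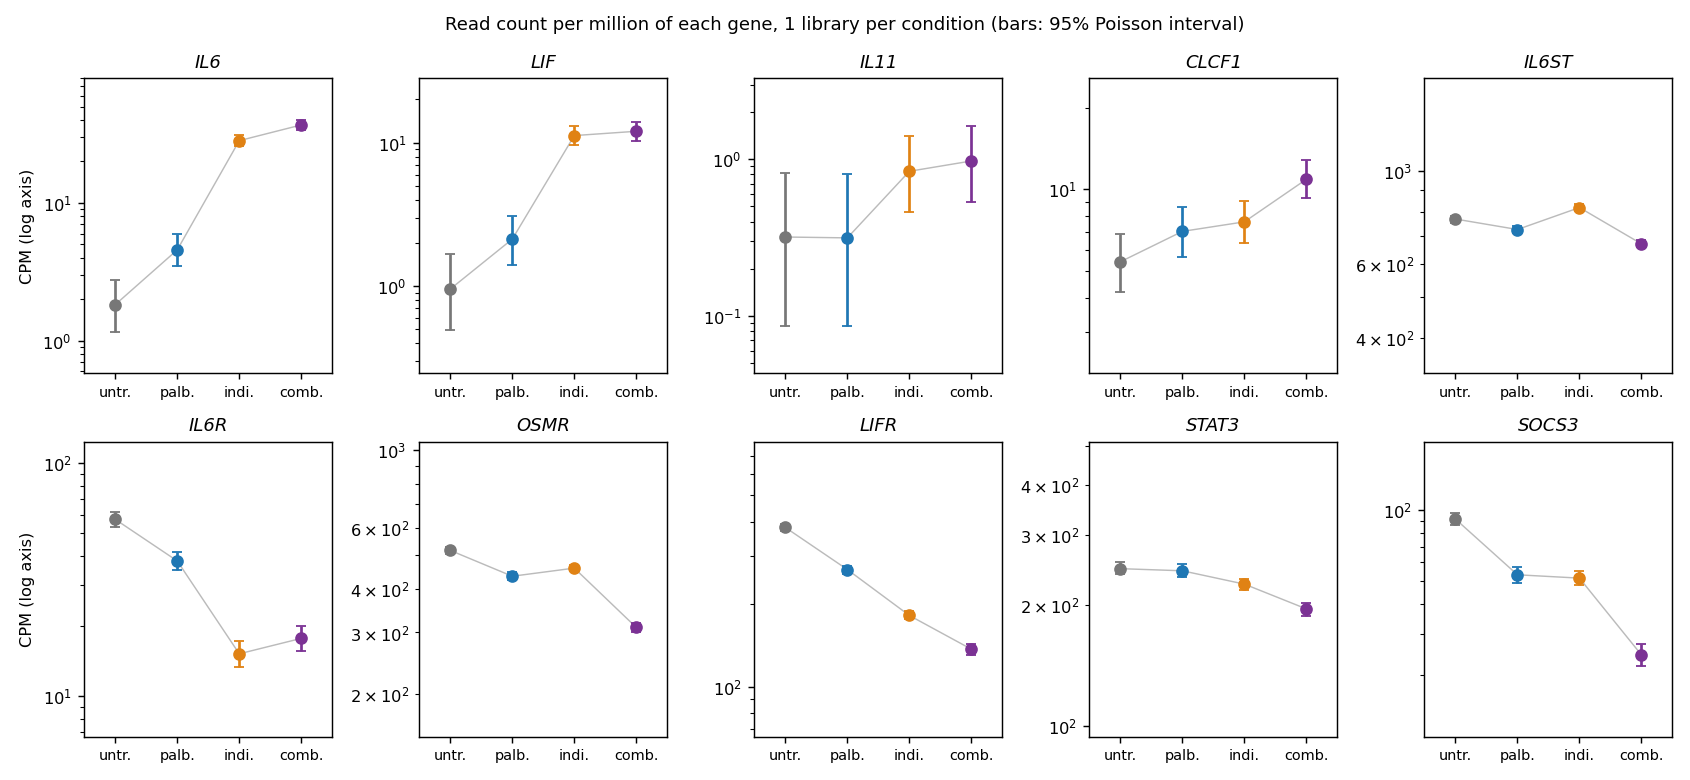
Level of each of the 10 genes in each library in CPM on log axes that differ between panels (untr., untreated; palb., palbociclib; indi., indisulam; comb., combination), with 95% Poisson intervals of the single count and grey lines that join the libraries. IL6 and LIF lay highest in both libraries with indisulam, IL6R lay lowest there, and LIFR and SOCS3 were lowest in the combination.

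Among the receptor genes, the shared chain varied least. IL6ST (ENSG00000134352, chr5:55935095-55995022, minus strand) encodes gp130 and stood at 768, 725, 818 and 670 CPM in untreated, palbociclib, indisulam and combination cells. The 4 levels were close, with indisulam highest and the combination lowest. Its largest difference, between the combination and indisulam, was 1.22-fold (-0.29, -0.33 to -0.25). That ratio was 1.03 times the rough error, and IL6ST was called in no comparison.

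IL6R encodes the alpha chain that binds IL-6 (ENSG00000160712, chr1:154405193-154469450, plus strand). Its level was 57.3 CPM untreated, 38.0 CPM with palbociclib, 15.2 CPM with indisulam and 17.7 CPM with the combination. The ligand and its alpha chain were thus ordered oppositely by the presence of indisulam, with IL6R low where IL6 was high. IL6R was called lower with indisulam, at 3.75-fold (-1.91, -2.11 to -1.70), and with the combination, at 3.23-fold (-1.69, -1.90 to -1.48). With palbociclib alone it was 1.51-fold lower (-0.59, -0.76 to -0.43), below the threshold.

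LIFR encodes the chain that pairs with gp130 for LIF (ENSG00000113594, chr5:38474668-38608354, minus strand), and its level stepped down from 382 CPM untreated to 268 CPM with palbociclib, 182 CPM with indisulam and 137 CPM with the combination. It was called lower with indisulam, at 2.09-fold (-1.06, -1.13 to -1.00), and with the combination, at 2.79-fold (-1.48, -1.56 to -1.40). So the gene for the LIF receptor was lower in the libraries in which LIF was higher. A link between the levels of LIF and LIFR was not tested. With indisulam added to palbociclib it was 1.96-fold lower (-0.97, -1.05 to -0.89), short of a call, which it gained with edgeR's TMM or upper-quartile factors. LIFR-AS1, on the other strand, had 63, 44, 58 and 43 reads.

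OSMR, the oncostatin M receptor gene (ENSG00000145623, chr5:38845858-38945596, plus strand), lies 238 kb from LIFR on chromosome 5. It was at 516, 435, 459 and 310 CPM in the 4 libraries in the same order, with the combination below the others. The combination was 1.66-fold below untreated (-0.74, -0.79 to -0.68), or 2.62 times the rough error but under the 2-fold threshold. The oppositely transcribed RICTOR overlaps OSMR and had 987, 743, 2405 and 1227 reads.

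STAT3 (ENSG00000168610, chr17:42313324-42388540, minus strand) was nearly level at the RNA: 247 CPM untreated, 244 CPM with palbociclib, 226 CPM with indisulam and 196 CPM with the combination. Its lowest value, with the combination, was 1.27-fold below untreated (-0.34, -0.41 to -0.27), 1.21 times the rough error. SOCS3, which encodes the feedback inhibitor of gp130 and is a well-known STAT3 target (ENSG00000184557, chr17:78356778-78360077, minus strand), was at 91.5, 53.2, 51.5 and 24.4 CPM. Each drug alone gave about the same level, and the combination was lowest. SOCS3 was 3.74-fold lower in the combination than in untreated cells (-1.90, -2.07 to -1.73), at percentile 2.73 of tested genes. Neither drug alone passed the threshold, with 1.72-fold for palbociclib (-0.78, -0.92 to -0.65) and 1.78-fold for indisulam (-0.83, -0.96 to -0.70). It was the single gene of the 9 called in the combination against indisulam, at 2.10-fold lower (-1.07, -1.25 to -0.89), and it was also lower against palbociclib, at 2.17-fold (-1.12, -1.31 to -0.93).

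Counted over the 9 tested genes, palbociclib gave 2 higher calls, IL6 and LIF, and 0 lower, where 5.85% of all tested genes were called higher and 4.89% lower. Indisulam gave 2 higher, again IL6 and LIF, and 2 lower, IL6R and LIFR, beside 8.39% and 6.69% of all genes. In the combination 3 genes were higher, IL6, LIF and CLCF1, and 3 lower, IL6R, LIFR and SOCS3, beside 12.9% and 10.5%. Against palbociclib, the combination had 2 higher, IL6 and LIF, and 2 lower, IL6R and SOCS3, beside 9.56% and 7.38%. Against indisulam it had 0 higher and 1 lower, SOCS3, beside 5.04% and 3.15%. The median log2 ratio of the 9 genes ran from -0.34 in the combination to -0.08 with palbociclib, and the median of all tested genes was 0.05 and -0.02 there. The untreated library is shared by the first 3 comparisons and the combination library by the last 3.

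**Figure D2:**
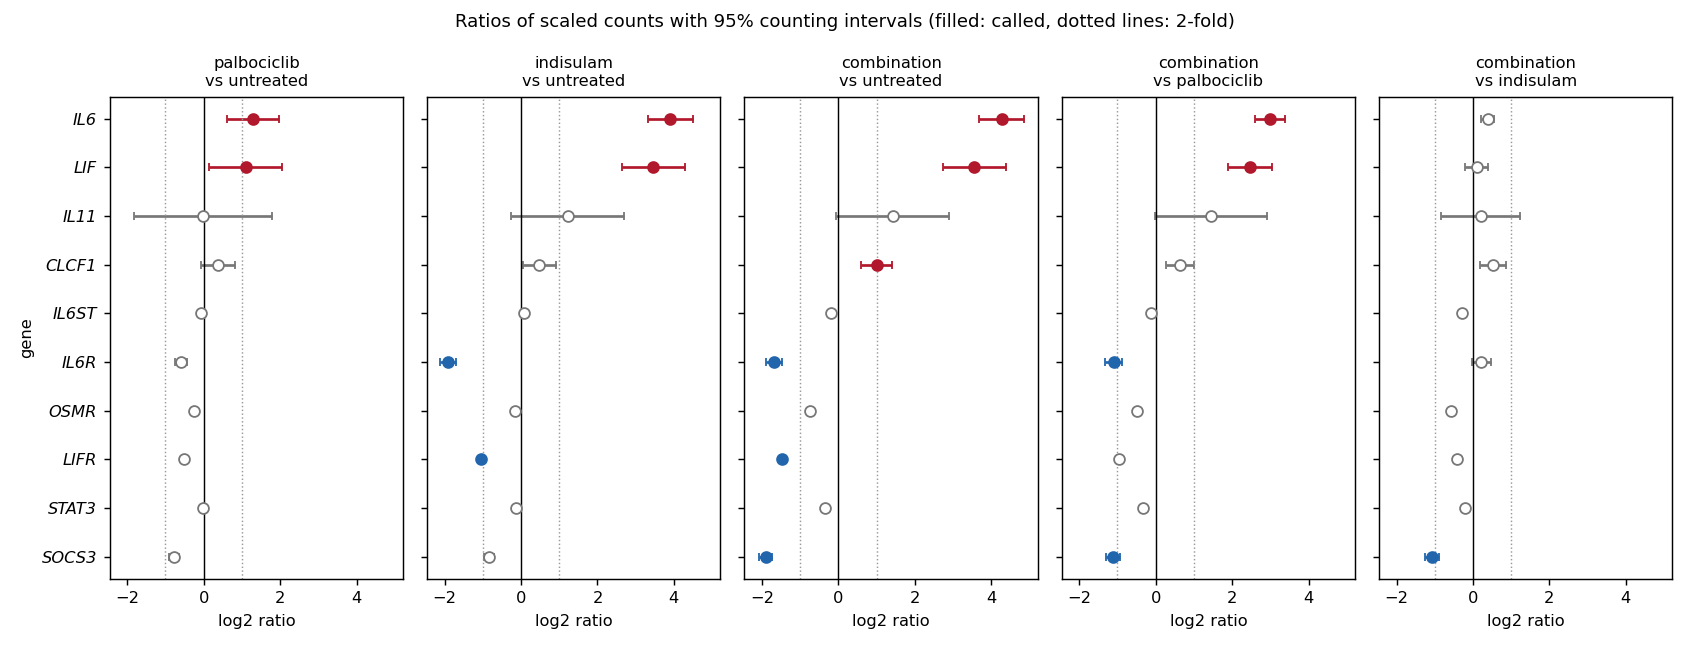
Log2 ratios of scaled counts in the 5 comparisons with their 95% counting intervals; filled points were called, red higher and blue lower, and dotted lines mark 2-fold. IL6 and LIF lay right of the upper line wherever a library with indisulam was set against one without, while SOCS3 alone was called in the combination against indisulam.

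Each drug's effect could be estimated from pairs of libraries that have no library in common, 1 pair lacking the other drug and 1 holding it. In the case of indisulam these were indisulam against untreated and the combination against palbociclib, and 8 of the 9 genes had ratios of the same sign in both, the exception being IL6ST, beside 74.0% of all tested genes. IL6, LIF and IL6R were called the same way in both, 3 of 9 genes, where 8.52% of all tested genes were. IL6 was 14.9-fold higher without palbociclib and 7.94-fold higher with it (2.99, 2.60 to 3.38), and LIF 11.0-fold and 5.51-fold (2.46, 1.89 to 3.04). IL6R was 3.75-fold lower without palbociclib and 2.14-fold lower with it (-1.10, -1.32 to -0.88). For palbociclib the signs were shared by 8 of 9 genes, beside 67.6% of all tested genes, and by all 5 whose intervals excluded equal levels in both pairs, namely IL6, IL6ST, OSMR, LIFR and SOCS3, where 80.7% of all such genes shared the sign. No gene of the 9 was called in both pairs for palbociclib, where 3.24% of all tested genes were called the same way. IL6R was the exception in sign, 1.51-fold lower without indisulam and 1.16-fold higher with it, the second with an interval that includes no difference (-0.03 to 0.47).

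**Figure D3:**
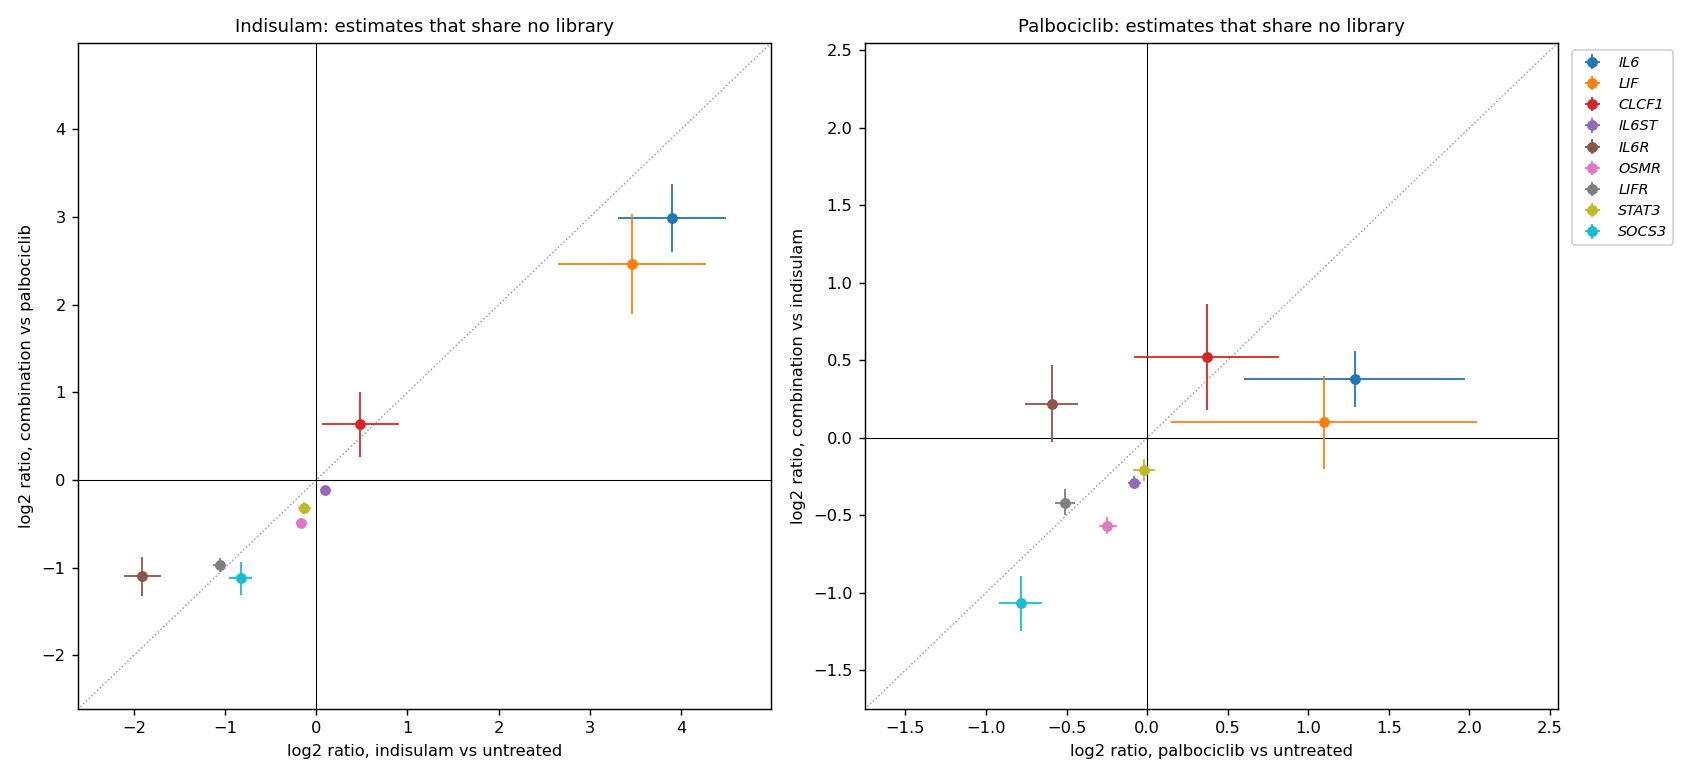
For each drug, the log2 ratio without the other drug (x axis) against that with it (y axis), with 95% counting intervals; the dotted line marks equal values and IL11 is not shown. On the left, IL6 and LIF are far up and to the right and IL6R far down and to the left, and on the right SOCS3 is farthest down and to the left while IL6R lies on opposite sides of 0 in the pairs.

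The departure from additivity, which is the combination's log2 ratio to untreated minus the sum of those of both drugs, was -0.91 for IL6 (-1.62 to -0.20) and -1.00 for LIF (-2.00 to 0.00). Both values are below 0, with an interval that touches 0 for LIF. The robust SD of departures over genes of like level was 0.52 for IL6 and LIF. LIF sat on the threshold and was the 1 gene of 9 called below additivity, beside 3.84% of all tested genes. That call was kept with TMM factors and lost with upper-quartile factors (-0.98, -1.98 to 0.02), with totals without mitochondrial genes and with a pseudocount of 5 (-0.83, -1.73 to 0.08). For IL6R the departure was 0.81 (0.51 to 1.11), in the other direction and not called, beside a robust SD of 0.37. No gene of the 9 was called above additivity, where 3.93% of all genes were. The departures of CLCF1, IL6ST, OSMR, LIFR, STAT3 and SOCS3 lay between -0.32 and 0.15.

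Levels of different genes were compared per length, as reads per kb of annotated exon. These were divided by their sum over all genes of the library and given in TPM, which sum to 1000000 in each library. Each length joined all annotated exons of a gene, such as 4321 bases for IL6 and 12159 for LIFR. The order of genes depends on this choice, which the counting intervals do not cover. In untreated cells OSMR (268) and IL6ST (237) were highest, then SOCS3 (125), LIFR (117), STAT3 (82.3), IL6R (30.5), CLCF1 (11.0), IL6 (1.58), LIF (0.921) and IL11 (0.444). Of the 9 neighbouring pairs in that order, SOCS3 and LIFR, IL6 and LIF, and LIF and IL11 had overlapping counting intervals. In the combination the order was IL6ST (207), OSMR (161), STAT3 (64.9), LIFR (41.8), SOCS3 (33.3), IL6 (31.7), CLCF1 (22.2), LIF (11.6), IL6R (9.41) and IL11 (1.35), where the pairs SOCS3 and IL6, and LIF and IL6R, overlapped. The per-length level of IL6 was thus below that of IL6R in untreated cells and above it in the combination, and with indisulam alone it was 25.6 beside 8.49. With palbociclib alone, IL6 (3.88) stayed below IL6R (19.9). The overlapping neighbours were OSMR and IL6ST, and LIFR and STAT3, with palbociclib, and STAT3 and SOCS3 with indisulam.

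**Figure D4:**
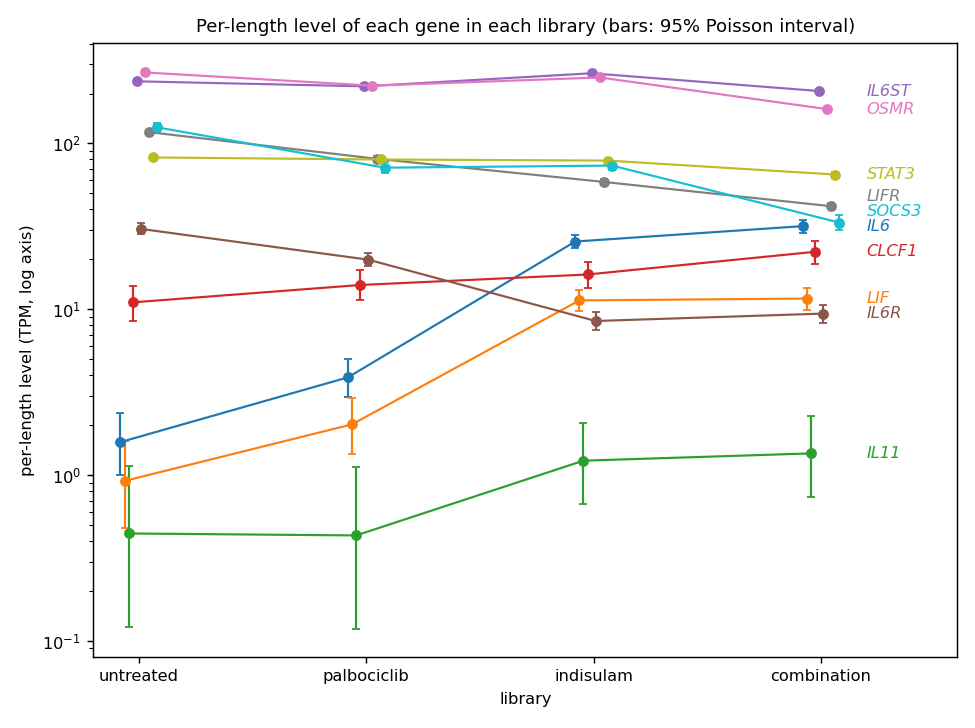
Per-length level (TPM from annotated exon lengths, log axis) of the 10 genes in the 4 libraries, with 95% Poisson intervals; points are shifted sideways for legibility and names stand at the right. The lines of IL6 and LIF cross that of IL6R between the palbociclib and indisulam libraries.

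The other genes of the pathway were taken from a list of 65 fixed by role, of which 57 were tested. In the combination against untreated, 9 of the 57 were higher and 11 lower, with a median log2 ratio of -0.08 beside 0.05 for all tested genes. Palbociclib gave 4 higher and 2 lower, and indisulam 10 higher and 6 lower. Some called genes reached the limit for testing only through the library in which they were high. HP did so through palbociclib, at 5.59 CPM beside 0.159 CPM untreated. The combination had 5 higher and 8 lower against palbociclib, and 3 higher and 4 lower against indisulam. The percentages of all genes given above apply to these counts too.

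Among the other ligands, EBI3 was called higher in the combination. EBI3 encodes a subunit shared by IL-27 and IL-35. It had 7, 101, 188 and 143 reads in untreated, palbociclib, indisulam and combination cells, and was 16.0-fold higher in the combination (log2 interval 2.96 to 5.03). The gene for oncostatin M, OSM, which lies 16.1 kb from LIF, had 0 to 3 reads per library, and IL27 and IL31 had no read, which allows up to 0.180 to 0.239 CPM at a limit of 3 reads.

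Of the other receptors, IL31RA, which pairs with OSMR to bind IL-31 and lies 12.2 kb from IL6ST, was the 1 called of 3 tested. It was at 12.5, 22.7, 19.8 and 26.6 CPM, 2.12-fold higher in the combination (1.08, 0.82 to 1.35). That call was lost with TMM factors and kept with upper-quartile factors. No shedding protease and no kinase or adaptor was called in the combination. ADAM10, a protease that cleaves IL6R among many proteins, was 1.52-fold higher (0.61, 0.52 to 0.69). The other shedding protease of the list, ADAM17, went the other way, at 1.36-fold lower (-0.45, -0.60 to -0.29). PTPN11, the phosphatase SHP2 that binds gp130, was 1.63-fold higher (0.70, 0.62 to 0.78).

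Among the other STAT genes, calls in the combination went in both directions. STAT4 rose 2.32-fold from a low level (1.22, 0.65 to 1.79), or 1.95 times the rough error. STAT2, a mediator of type I interferon signals, had per-length levels of 79.8, 87.4, 53.5 and 38.0 TPM and fell 2.10-fold (-1.07, -1.16 to -0.97). STAT3 lay between these, and STAT5A, STAT5B and STAT6 were not called.

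Of 12 negative regulators beside SOCS3, 3 were lower in the combination and 0 higher, beside 10.5% and 12.9% of all tested genes. CISH, a feedback inhibitor induced through STAT5, fell from 24.9 CPM untreated to 18.7, 8.08 and 3.48 CPM with palbociclib, indisulam and both, which is 7.04-fold in the combination (-2.81, -3.24 to -2.39). SOCS2, which belongs to the same family, fell 2.61-fold (-1.39, -1.77 to -1.00), and the phosphatase gene PTPN6 2.58-fold from 42 to 18 reads (-1.37, -2.15 to -0.59). The PTPN6 ratio was 2.19 times the rough error. SOCS1 (0.48, -0.06 to 1.02), SOCS4 (0.69), SOCS5 (0.69), SOCS6 (0.16) and SOCS7 (-0.45) were not called.

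Of 24 genes known as induced by these cytokines or through STAT3, 21 were tested, with 4 higher and 5 lower in the combination, beside the same 12.9% and 10.5% of all genes. The acute-phase gene SAA1 was at 88.4, 310, 235 and 463 CPM, a 5.23-fold rise (2.39, 2.30 to 2.48), and SAA2 rose 3.76-fold (1.91, 1.72 to 2.10). These are near-identical copies, so reads may be split between them. IRF1, a transcription factor of the interferon response, rose 2.53-fold (1.34, 1.13 to 1.55), and A2M, a protease inhibitor of plasma, had 6 and 34 reads (2.15, 0.97 to 3.33). The A2M ratio was 3.45 times the rough error. A2M stood at 0.478, 1.10, 0.838 and 2.37 CPM and reached a mean of 1 CPM only through the combination. Its call therefore depends on the same value that let it be tested. On the other side FOS, a subunit of AP-1, was at 190, 208, 59.7 and 16.4 CPM and fell 11.5-fold (-3.53, -3.72 to -3.34). JUNB, another AP-1 subunit, fell 2.26-fold, CEBPD, a C/EBP factor of the acute-phase response, 2.26-fold, and TNFRSF1A, a receptor for tumour necrosis factor, 2.67-fold. SERPINA3, with 26 and 14 reads, fell 2.05-fold (-1.03, -1.94 to -0.12), near the limit of its interval and 1.66 times the rough error. It was tested only because of the untreated library, at 2.07 CPM beside 0.867, 0.778 and 0.975 CPM in the others. The median over the 21 genes was 0.00, beside 0.05 over all tested genes.

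The last group holds 5 regulators of the decay of IL6 mRNA. ZC3H12A encodes Regnase-1, a nuclease that cleaves it, and was at 23.7, 27.8, 107 and 77.7 CPM, 3.28-fold higher in the combination (1.71, 1.53 to 1.90). ZFP36 encodes tristetraprolin, which promotes decay of AU-rich mRNAs, and was at 115, 109, 69.9 and 32.5 CPM, 3.52-fold lower (-1.81, -1.96 to -1.66). Both promote decay, and they differed in direction. ZFP36L1 (-0.74), ARID5A (0.71) and ELAVL1 (0.38) were not called.

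**Figure D5:**
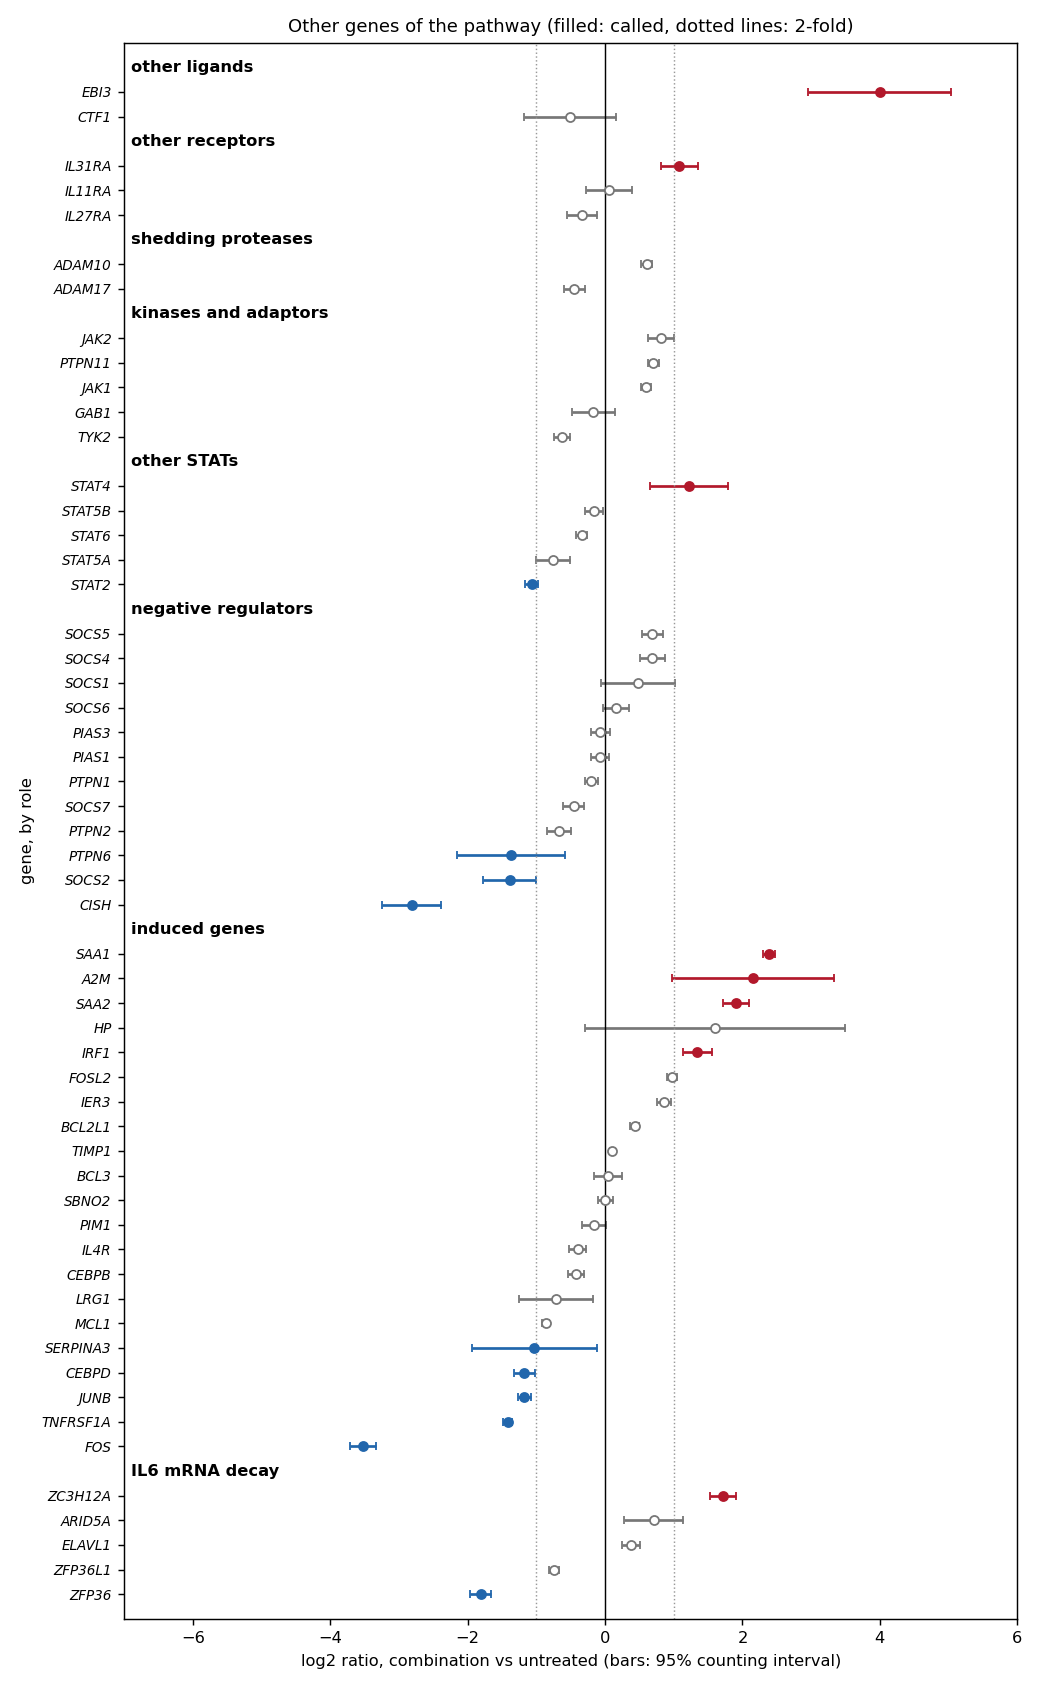
Log2 ratio of the combination to untreated cells for 55 of the 57 tested genes of the pathway list, grouped by role, with 95% counting intervals; filled points were called, red higher and blue lower, and dotted lines mark 2-fold. EBI3 is the farthest right and FOS the farthest left, and calls in both directions appear among the induced genes.

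For the 6 genes that varied at least 2-fold, the genes of most similar course were sought among 11235 candidates by the Euclidean distance of centred log2 values over the 4 libraries. Nearest to IL6 were TMEM178B (distance 0.33), EHF (0.48), an epithelial ETS factor, and CXCL3 (0.51), a chemokine that attracts neutrophils. CXCL3 was at 1.27, 2.05, 17.5 and 17.9 CPM. Nearest to LIF were DCLK1 (0.26), GPRC5B (0.27) and ST6GALNAC5 (0.46), and nearest to CLCF1 were ZNF506 (0.04), FAM210A (0.05) and PICALM (0.06). IL6R was closest to PTGER2 (0.09), a prostaglandin E2 receptor, SEC14L2 (0.16) and MILR1 (0.17). LIFR was closest to TMLHE (0.05), TMEM120A (0.09) and PCCA (0.11), and SOCS3 to TLE6 (0.05), ZNF385B (0.09) and AHCYL1 (0.11). With 4 libraries many genes share a course, so nearness is a description.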

How the data were processed

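RNA of SUM159 cells was sequenced from stranded mRNA libraries, 1 per condition. The labels give Trizol for the extraction and the study's methods a column kit, so this step is open. The deposited values are raw gene counts that the authors made, per the labels with TopHat2 2.1 and HTSeq on GRCh38. The strand setting and the annotation release are not given in the sources used here. Symbols and exon lengths came from GENCODE 44, which matched 56104 of the 60279 genes. The tallies of unassigned reads, 9.61% to 10.1% of each library, stayed out of all totals. Counts were scaled to the total gene count, with a pseudocount of 1. Comparisons rest on ratios with Poisson intervals at libraries of 12555908 to 16712174 gene counts. The rough error is the robust SD of departures from additivity over genes of like level, divided by the square root of 2. The ratio step was tested on simulated counts with Poisson error only, which cannot show the further error between single libraries. Named were all 10 genes, the pathway genes called in the combination or, in a role without a call, the one of highest mean count, and the 3 nearest genes by course. All 10 genes, the lists and the tests were chosen with earlier results of these data known. Python 3.11.15, scipy 1.17.1 and edgeR 4.0.16 (scaling factors) were used. Some genes of the fixed lists count in the totals but are not reported here by name.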

Additional observations from a re-analysis of the deposited data

How the results depend on the processing

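Each count of calls was repeated under 8 alternatives: TMM or upper-quartile factors, totals without mitochondrial genes, a pseudocount of 5, a 1.5-fold threshold, exact conditional intervals, no filter, and a filter of 5 CPM. Of the 10 genes, palbociclib called 1 with the pseudocount of 5 and 4 at 1.5-fold. With that pseudocount, 736 of all 14269 tested genes were called higher and 611 lower for palbociclib. For the 57 tested genes of the pathway list, the 1.5-fold threshold called 16 for palbociclib, 26 for indisulam and 35 for the combination. It called 17 in the combination against indisulam. Of all 14269 tested genes, it called 1797 higher and 1736 lower for palbociclib, and 2453 and 2032 for indisulam. In the combination against indisulam these were 1717 and 1450. Both were larger still in the combination against untreated. The looser threshold thus raised the counts over all genes too. The 5 CPM filter, which tests fewer genes, called 3 for palbociclib, 10 for indisulam and 8 in the combination against palbociclib. Of all 11376 genes under that filter, 438 were called higher and 395 lower for palbociclib, and 669 and 543 for indisulam. In the combination against palbociclib these were 761 and 635. The other counts, 38 of 40 for the 10 genes and 33 of 40 for the list, stayed within 1.5 times, and no called ratio or departure changed sign. The ratio of IL11 with palbociclib, not tested for a call, was -0.01 and became 0.01 with totals without mitochondrial genes. Of 250 single ratios 17 moved by more than counting error, and of 40 departures 0, though LIF lost its departure call under 3 of 4 alternatives. No paired analysis was possible because each condition had 1 library, so no library could be left out either. Depth limits IL11, LIF and the untreated value of IL6 most.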

Other observations

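Some genes of the pathway list outside the naming rule, picked after their values were seen, also differed between libraries. HP, the acute-phase protein haptoglobin, had 2 reads untreated, 71 with palbociclib, 0 with indisulam and 9 with the combination. JAK2, a kinase that gp130 uses, was at 26.1, 28.6, 67.4 and 45.8 CPM in the same order, and was called higher with indisulam but not with the combination. CRP, C-reactive protein, had 4, 9, 16 and 24 reads, below the limit for testing. FOSL2, an AP-1 subunit, was at 146, 133, 328 and 288 CPM, while FOS was lower in both libraries with indisulam than in both without. For EBI3 the departure from additivity was -3.85 (-4.94 to -2.76), with 7.96 CPM for palbociclib, 11.2 CPM for indisulam and 9.96 CPM for the combination against 0.558 CPM untreated.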
